A study of Homo sapiens with 20 samples.

Results

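The genes described here are those whose mRNA stood apart at 3 h from its level at 1 and 6 h in JinB8 cells. JinB8 is a CD47-deficient somatic mutant of the Jurkat T lymphoblast, a human T cell leukemia line, and it is a single mutant line. The 9 treated JinB8 libraries of the 20 libraries sequenced were used, and each of the 3 libraries taken at 3 h was compared with the mean of the 1 h and 6 h libraries of the same treatment. These libraries were taken by their line, treatment and time. Of 60719 genes in the table, 17257 had enough counts to be tested.

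Cells of both lines were held in serum-free HITES medium, which contains insulin, transferrin and hydrocortisone, and this was shared by every group. They were plated for 1, 3 or 6 h on dishes coated with anti-CD3 (OKT3) and anti-CD28 (CD28.2) antibodies (CD3+CD28), on the same dishes with thrombospondin-1 added (CD3+CD28+TSP1), or with TSP1 and no antibodies (TSP1). TSP1, a secreted glycoprotein that binds CD47, was used at 1 μg/ml and anti-CD28 at 4 μg/ml. WT Jurkat cells received the same 9 conditions, and each line had 1 untreated library, at 1 h only. Each condition was sequenced once. The treatments therefore stand in for replicates, and the p-values measure the spread that treatment and time do not explain together. Without untreated cells at 3 and 6 h, plating, medium change and time in culture cannot be told apart from a time course that the treatments share.

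Engagement of the T cell receptor and CD28 sets off kinase cascades that switch on immediate early genes within minutes, and the products of these genes include repressors and phosphatases that end the signal. Transcripts that carry such signals are often short-lived, and mRNAs of glycolysis, chaperones and ribosomes include many abundant ones. Histone genes that are used during DNA replication form a separate class, because their mRNAs end in a stem-loop instead of a poly(A) tail and only a small part of them is captured by kits that select poly(A) RNA.

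The 9 libraries held between 16107921 and 24989562 counts. The JinB8 library given CD3+CD28+TSP1 at 3 h was the shallowest, the other 8 held at least 21945149 counts, and this library stood apart in further ways. Ribosomal protein genes took 5.32% of its counts against 6.98% to 7.57% in the others. MALAT1 and NEAT1 together took 0.748% against 0.311% and 0.327% in the other 3 h libraries, and 0.497% to 0.605% in those of 1 h. Of 11029 genes with a mean of at least 5 CPM (counts scaled to a library of equal size), 296 differed by more than 2-fold between this library and the mean of the other 3 h libraries, 277 of them higher in it, and 28 differed by that much between those 2 libraries. Across 10197 protein-coding genes its deviation went with exon length (Spearman correlation 0.49 across genes, which are not independent replicates), against -0.087 for the difference between the others. Libraries of the same time point correlated at 0.984 to 0.987 without it and at 0.971 to 0.973 with it. Results are therefore given with and without this library. CD47 mRNA was present at 142 to 168 CPM in the treated JinB8 libraries and at 248 to 367 CPM in Jurkat cells, the order that the labels give.

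Time separated the libraries along the first principal component, which held 40.3% of the variance and placed 1 h below 3 h and 3 h below 6 h. The second component held 22.5% and set the 3 h libraries, at -15, -25.9 and -72.1, apart from those of 1 and 6 h, all between 13.7 and 25.5. The value of -72.1 belongs to the outlying library.

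**Figure D1:**
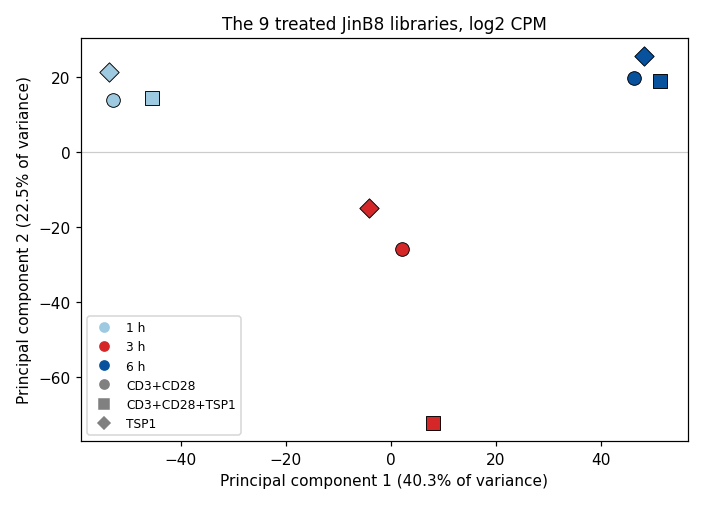
Principal components of log2 CPM in the 9 treated JinB8 libraries, with component 1 (40.3% of the variance) on the horizontal and component 2 (22.5%) on the vertical axis. Colours give the time and symbols the treatment. The 3 libraries of 3 h lie below 0 on component 2 and the 6 others above it.

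At 3 h, 1546 genes were higher (8.96% of those tested) and 1445 lower (8.37%) than the mean of 1 and 6 h by the edgeR quasi-likelihood test at a Benjamini-Hochberg adjusted p of 0.05. At an unadjusted p under 0.05 there were 5820 genes. The median size on the log2 scale was 0.59 among the higher and 0.40 among the lower genes, and 327 of the higher but 55 of the lower genes exceeded 2-fold. The median over all tested genes was 0.020. A departure of this kind also arises in a gene that moves early and stays, or moves late, so 3 h was compared with 1 h and 6 h separately. At 3 h, 14.6% of the tested genes were higher and 15.2% lower than at 1 h, and 15.9% were higher and 15.1% lower than at 6 h. By the stricter rule 483 genes peaked (2.8% of those tested), being higher than at both other times, and 388 genes dipped (2.25%). Of the other higher genes, 581 differed from 1 h only and 440 from 6 h only, and of the other lower genes 411 differed from 1 h only and 583 from 6 h only.

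Without the outlying library, 2145 genes were higher (12.2% of 17554 tested) and 2326 lower (13.3%), with 718 peaks and 744 dips. Of the genes called with all 9 libraries, 1295 higher and 1397 lower genes were shared. Leaving out any other library lowered the counts of higher and lower genes. These were lowest without the CD3+CD28 library of 3 h, with 506 higher and 453 lower genes. Without that treatment's library of 1 h there were 645 and 625, and without its library of 6 h 733 and 594. Without the CD3+CD28+TSP1 library of 6 h there were 719 and 658, without the TSP1 library of 6 h 988 and 751, and without the TSP1 library of 1 h 1081 and 940. In the paragraphs that follow, sets of 3 CPM values are in the order CD3+CD28, CD3+CD28+TSP1 and TSP1, CPM are scaled by TMM factors, and log2 values are 3 h relative to the mean of 1 and 6 h unless another comparison is named. Counts of genes higher or lower in a list refer to that mean, so a gene that falls after 1 h can be counted as higher. They stand against 8.96% higher and 8.37% lower over all tested genes, and against 12.2% and 13.3% where the outlying library was left out. In all 3 treatments, 1572 of the 17257 tested genes were above both other times at 3 h and 1411 were below both. Genes named for the largest departures were picked from these, so their lack of overlap is in part given by that choice.

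Replication-dependent histone genes, which supply the nucleosome proteins for newly made DNA, gave the highest share of genes called higher at 3 h of all the lists examined. Of 41 tested members of a list of 42, 32 were higher and none lower, with a median log2 departure of 0.68 against 0.020 over all tested genes, and 15 peaked. Without the outlying library 36 were higher, none was lower and the median was 0.82. The summed level of the list was 7761, 8714 and 7036 CPM at 1 h, 16440, 11590 and 14160 CPM at 3 h, and 11400, 10730 and 11590 CPM at 6 h. The rise from 1 to 3 h was larger than the return by 6 h, with median log2 differences of 0.90 against 1 h and 0.32 against 6 h. By treatment the median departures were 0.84, 0.32 and 0.77, so the outlying library had the smallest value.

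H2AC11, which encodes a histone H2A and lies on chromosome 6 of GRCh38 from 27133043 to 27133535 (plus strand, GENCODE version 44), was measured at 351, 408 and 312 CPM at 1 h. At 3 h it was at 929, 666 and 698 CPM and at 6 h at 393, 405 and 433 CPM, so that every 3 h library lay above every other library. Its log2 departure was 0.99 (SE 0.12, edgeR adjusted p = 0.00201), and 1.12 without the outlying library. H3C2, an H3 gene on chromosome 6 from 26031589 to 26032099 (minus strand), was at 463, 531 and 414 CPM, then 961, 677 and 746 CPM, then 563, 564 and 561 CPM. Its groups did not overlap either, and the log2 departure of 0.62 (SE 0.11, edgeR adjusted p = 0.00871) fell short of the threshold without the CD3+CD28 library of 3 h (0.47, adjusted p = 0.0595).

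Promoters of these genes often carry CCAAT boxes, short elements bound by the factor NF-Y. In the 250 bases before the start sites that RefSeq gives on GRCh38.p14, the letters CCAAT on either strand occurred in 35 of 41 promoters of the 38 list genes matched (85.4%), against 32% of 35116 promoters of all genes. The promoters of H2AC11 (chr6:27132793-27133042, plus strand) and H3C2 (chr6:26032100-26032349, minus strand) are shown for the histone genes described above, 5′ to 3′, with CCAAT or its reverse complement ATTGG in capitals.
H2AC11: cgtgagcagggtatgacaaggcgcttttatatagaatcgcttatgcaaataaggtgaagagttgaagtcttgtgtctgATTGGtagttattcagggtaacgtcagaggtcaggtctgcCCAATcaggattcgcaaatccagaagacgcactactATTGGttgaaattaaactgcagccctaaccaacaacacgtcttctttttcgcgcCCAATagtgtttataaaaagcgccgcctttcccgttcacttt
H3C2: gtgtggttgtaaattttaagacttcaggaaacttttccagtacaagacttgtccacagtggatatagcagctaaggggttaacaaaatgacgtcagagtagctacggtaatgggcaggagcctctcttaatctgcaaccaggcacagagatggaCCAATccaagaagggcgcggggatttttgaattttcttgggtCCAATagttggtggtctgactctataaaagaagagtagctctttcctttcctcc
The first holds 4 and the second 2 matches, and a match is a description of the sequence, not evidence of binding.

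Some histone genes outside the list were among the largest increases. H2AC19 was at 64.9, 70.0 and 31.1 CPM at 1 h, 803, 566 and 233 CPM at 3 h and 190, 202 and 136 CPM at 6 h, a log2 departure of 2.33 (SE 0.17, edgeR adjusted p = 0.000501). H2AC18 encodes the same protein from a near-identical copy, and its log2 departure was 0.57 (edgeR adjusted p = 0.0684), so the division of reads between the copies is uncertain. The departures of H2AW (2.08, SE 0.21, edgeR adjusted p = 0.00132) and H3C14 (1.86, SE 0.36, edgeR adjusted p = 0.0118) carry the same reservation for H3C14, which has the copy H3C15. H3C14 missed the threshold without the CD3+CD28 library of 3 h (1.36, adjusted p = 0.0685). H2AW, a single gene on chromosome 1, was at 99.5, 74.9 and 31.2 CPM at 3 h against 6.4 to 30.1 CPM at the other times.

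Among the other genes with the largest increases, ARAP2, an Arf GTPase-activating protein on chromosome 4 from 35948221 to 36244514, was at 9.32, 8.61 and 6.36 CPM at 1 h. It reached 47.6, 38.5 and 34.5 CPM at 3 h and was back at 13, 13.4 and 14.2 CPM at 6 h. The lowest 3 h library was above the highest of the others, and the log2 departure was 1.93 (SE 0.11, edgeR adjusted p = 0.000364). PDCD1, which encodes the inhibitory receptor PD-1 and lies on chromosome 2 from 241849884 to 241858894, gave 3.59, 5.92 and 2.29 CPM at 1 h. It gave 19.2, 14 and 11.6 CPM at 3 h and 3.93, 5.08 and 3.56 CPM at 6 h, a log2 departure of 1.91 (SE 0.19, edgeR adjusted p = 0.00132). Again there was no overlap, which the rule that picked ARAP2 and PDCD1 in part required. The level at 3 h in cells given TSP1 without antibodies was below the levels in the activated cells but above every 1 h and 6 h value.

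Some less abundant genes peaked in the same way. VGF, a secreted neuropeptide precursor, was at 6.74, 6.37 and 2.15 CPM at 3 h and between 0.509 and 2.06 CPM at the other times (log2 departure 1.98, SE 0.16, edgeR adjusted p = 0.000714). ADAMTSL2, a secreted glycoprotein of the extracellular matrix, was at 7.49, 6.58 and 5.38 CPM at 3 h against 0.594 to 1.28 CPM at 1 h and 2.78 to 3.69 CPM at 6 h (1.89, SE 0.16, edgeR adjusted p = 0.000721). ZFPM1, the GATA cofactor FOG1, and PHLDB1 had log2 departures of 1.73 (SE 0.20, edgeR adjusted p = 0.00181) and 1.83 (SE 0.24, edgeR adjusted p = 0.00268). In FAM186B and SRRM5 the outlying library stood far above the rest. FAM186B was at 11.2 CPM there and at 2.53 and 1.72 CPM in the other 3 h libraries, and its log2 departure of 2.52 (edgeR adjusted p = 0.00951) became 1.58 (adjusted p = 0.00455) without it. FAM186B was not called a peak, since its difference from 6 h was 1.14 (adjusted p = 0.123). SRRM5 was at 8.04 CPM there against 2.22 and 2.28 CPM, and its departure of 1.78 (edgeR adjusted p = 0.0163) became 1.01 (adjusted p = 0.0179).

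COL6A3, a chain of collagen VI, met the selection by a rise that was kept. It went from 2.35, 2.39 and 1.70 CPM at 1 h to 22.5, 29.8 and 14.5 CPM at 3 h and stayed at 18.7, 16.2 and 13.8 CPM at 6 h. The log2 difference from 1 h was 3.34 (edgeR adjusted p = 7.79e-05) and that from 6 h was 0.41 (adjusted p = 0.0634), so COL6A3 was not called a peak.

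Genes that feed back on receptor signalling gave single peaks and not a shift of the whole list. Of 28 tested members 6 were higher and 2 were lower, with a median of 0.051, and 7 were higher and 3 were lower, with a median of 0.014, without the outlying library. NAB1, a corepressor of the EGR transcription factors on chromosome 2 from 190646746 to 190692766, was at 84.2, 87.0 and 68.6 CPM at 1 h, 169, 135 and 134 CPM at 3 h and 44.1, 40.6 and 43.1 CPM at 6 h. Its 3 h values were all above the others (log2 departure 1.32, SE 0.08, edgeR adjusted p = 0.000453). Its paralog NAB2 did not peak. NAB2 was at 101, 113 and 77.2 CPM at 1 h, 124, 83.0 and 77.9 CPM at 3 h and 24.2, 22.1 and 19.2 CPM at 6 h, and its departure of 1.03 (SE 0.11, edgeR adjusted p = 0.00143) came from the fall by 6 h. SPRED1, an inhibitor of Ras signalling, rose from 21.1, 19.8 and 18 CPM to 41.1, 40.5 and 42.5 CPM and was at 33.8, 34.8 and 33.3 CPM at 6 h (0.68, SE 0.07, edgeR adjusted p = 0.0015). RGS2, a regulator of G protein signalling, was among those that dipped, at 24.3, 15.2 and 26.1 CPM at 3 h against 29.7 to 39.2 CPM (log2 departure -0.63, SE 0.13, edgeR adjusted p = 0.0145), a call lost without the CD3+CD28 library of 1 h (adjusted p = 0.0527).

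Against 8.96% higher and 8.37% lower over all tested genes, 5 of 19 tested genes of T cell activation were higher and 1 was lower, with a median of 0.20 (6 and 1 without the outlying library). NFATC1, a transcription factor of the calcium pathway, peaked at 76.7, 86.0 and 65.8 CPM, against 59.1, 58.0 and 47.4 CPM at 1 h and 33.3, 33.3 and 32.5 CPM at 6 h (log2 departure 0.83, SE 0.07, edgeR adjusted p = 0.000721). TNFRSF4, the costimulatory receptor OX40, rose from 1.28, 1.75 and 0.509 CPM to 10.2, 9.17 and 6.20 CPM and remained at 6.81, 8.61 and 7.71 CPM (1.49, SE 0.22, edgeR adjusted p = 0.00413). TNFRSF4 at 3 h and 6 h overlapped, and the difference between them was 0.11 (adjusted p = 0.755). CD69, an early activation antigen, was on its way down, from 57.8 to 70.2 CPM at 1 h to 23.0 to 36.1 CPM at 3 h and 5.58 to 8.45 CPM at 6 h. CD69 had a log2 departure of 0.45 (edgeR adjusted p = 0.00927), lost without the CD3+CD28 library of 3 h (adjusted p = 0.0692), without the treatment term (adjusted p = 0.056) and in the model of both lines (adjusted p = 0.221).

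The immediate early list, the first genes switched on after a stimulus, had 6 of 26 tested genes higher and 2 lower, and none of them peaked. Its median log2 difference was -0.27 against 1 h and 0.57 against 6 h, with 11 genes lower at 3 h than at 1 h and 16 higher than at 6 h (15.2% and 15.9% of all tested genes), and 8 genes were higher and 3 lower without the outlying library. JUND, an AP-1 subunit, was at 16.4, 16.6 and 12.9 CPM, then 21.1, 18.2 and 15.6 CPM, then 8.13, 10.4 and 6.80 CPM (log2 departure 0.69, SE 0.10, edgeR adjusted p = 0.0042). Of 19 tested NF-kappaB genes 1 was higher and 2 were lower (2 and 2 without the outlying library). That gene was RELB, a subunit of the factor, at 8.42, 8.42 and 6.11 CPM at 3 h against 3.65 to 5.75 CPM (0.74, SE 0.13, edgeR adjusted p = 0.00901), and RELB missed the threshold without the CD3+CD28 library of 3 h (adjusted p = 0.0585).

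In the TGF-beta and SMAD list of 12 tested genes, 4 were higher and all 4 peaked, while the median of the list was -0.16 and none was lower (4 were higher and 1 was lower without the outlying library). TGFB1, the ligand, was at 9.61, 8.48 and 8.36 CPM at 1 h, 19.1, 25.9 and 14.5 CPM at 3 h and 11.1, 12 and 9.31 CPM at 6 h (log2 departure 0.99, SE 0.13, edgeR adjusted p = 0.00245). The others encode inhibitors of the pathway. SKIL, a corepressor of SMAD proteins, was at 40.4, 36.2 and 35.0 CPM, then 45.4, 54.8 and 51.1 CPM, then 21.9, 20.6 and 23.0 CPM (0.82, SE 0.09, edgeR adjusted p = 0.0015). SMURF2, a ubiquitin ligase for SMADs and the receptor, peaked at 69.7, 63.0 and 73.2 CPM against 46.1 to 52.6 CPM (0.48, SE 0.07, edgeR adjusted p = 0.00378). SKI, a second SMAD corepressor, was at 60.0 CPM in the outlying library and at 25.1 and 17.5 CPM in the other 3 h libraries, all above the 9.46 to 13.2 CPM of the other times. Its departure of 1.40 (SE 0.24, edgeR adjusted p = 0.00794) was 0.90 (adjusted p = 0.000373) without that library.

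CDKN1A, ULK1 and RUNX3 peaked, in lists that moved little or both ways. Of 8 cyclin-dependent kinase inhibitors 1 was higher and 1 was lower (3 and 1 without the outlying library), and of 15 p53 targets 3 were higher and 1 was lower (5 and 1). CDKN1A, which encodes the cell cycle inhibitor p21, was at 11, 11.5 and 7.72 CPM at 1 h, 17.7, 15.3 and 14.2 CPM at 3 h and 6.72, 6.21 and 5.47 CPM at 6 h (log2 departure 1.01, SE 0.10, edgeR adjusted p = 0.00132). ULK1, the kinase that starts autophagy, was at 16.3, 20.4 and 13.2 CPM, then 32.2, 41.2 and 23.2 CPM, then 13.2, 14.4 and 13.2 CPM (1.07, SE 0.11, edgeR adjusted p = 0.00132). Of the 16 autophagy and lysosome genes tested, 2 were higher and none lower (3 and none without the outlying library). RUNX3, a T lineage transcription factor, peaked at 39.1, 57.1 and 30.9 CPM against 19.1 to 30.1 CPM (0.82, SE 0.12, edgeR adjusted p = 0.00398).

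Of 20 tested Notch and lineage genes, 4 were higher and 2 were lower, with 4 and 4 without the outlying library. NOTCH1, the receptor, rose from 32.6, 41.4 and 27.2 CPM to 86.6, 137 and 57.7 CPM and was at 66.1, 86.2 and 71.2 CPM at 6 h (log2 departure 0.84, SE 0.13, edgeR adjusted p = 0.00527). Its 3 h and 6 h values overlapped. DTX1, a Notch target and regulator, rose from 39.8, 45.8 and 42.1 CPM to 120, 145 and 96.3 CPM and stayed at 123, 135 and 123 CPM (0.70, SE 0.08, edgeR adjusted p = 0.00213). Targets of the stress factor ATF4 went both ways, with 7 of 27 higher, 3 lower and no peak or dip (9 and 4 without the outlying library). The amino acid transporters SLC7A5 and SLC7A11 rose by 1.42 and 1.62 on the log2 scale from 1 to 3 h (edgeR adjusted p = 0.000125 and 7.79e-05) and kept that level, whereas the pseudokinase gene TRIB3 went from 155 to 175 and 138 CPM at 3 h to 58.4 to 63.9 CPM at 6 h.

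**Figure D2:**
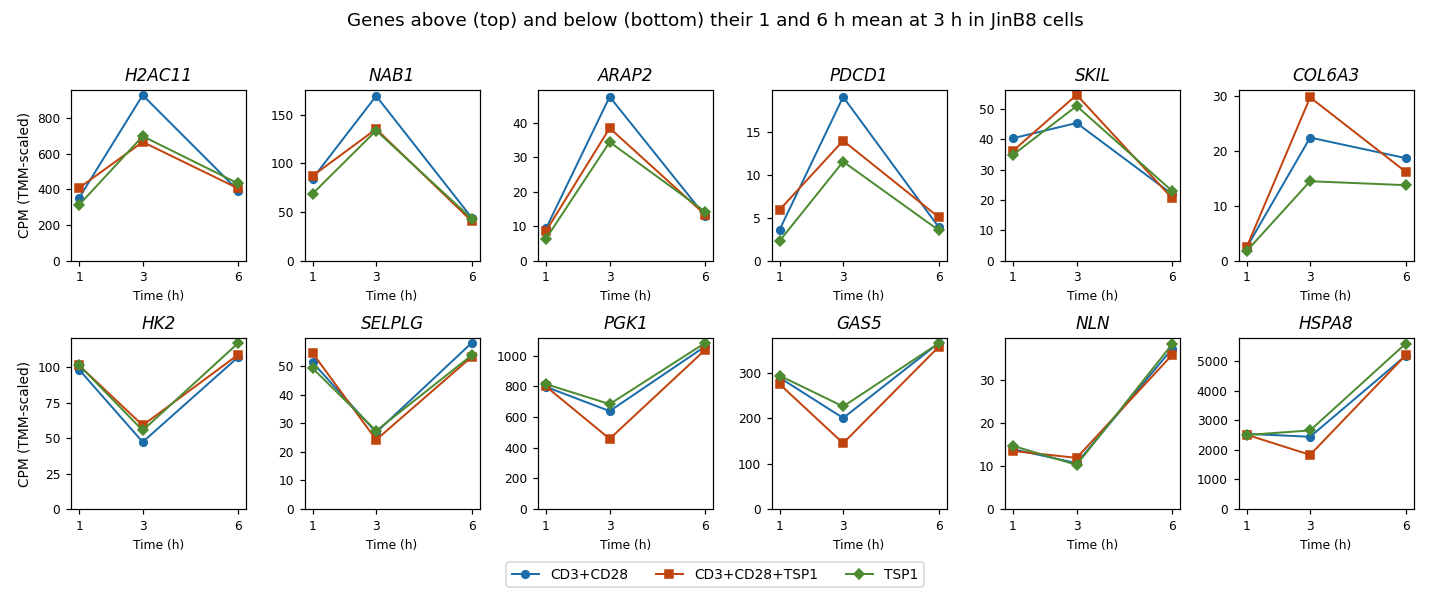
TMM-scaled CPM (vertical axes, from 0) against time after plating in hours in JinB8 cells, with 1 point per library and 1 line per treatment. The upper row shows genes above their 1 and 6 h mean at 3 h and the lower row genes below it; COL6A3 kept its rise at 6 h, and NLN and HSPA8 moved mainly between 3 and 6 h.

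Genes of glycolysis, the pathway that breaks down glucose, were lower at 3 h. Of 20 tested, 13 were lower and none higher, with a median log2 departure of -0.35 and 6 dips. Without the outlying library 15 were lower, 1 was higher and the median was -0.22. The summed level was 9665, 10220 and 9575 CPM at 1 h, 8160, 6339 and 8230 CPM at 3 h and 10430, 10140 and 10440 CPM at 6 h.

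HK2, hexokinase 2, which carries out the first step of the pathway and lies on chromosome 2 from 74834127 to 74893359, was among the 12 largest decreases that met the rule for named genes, which asks for a mean of at least 2 CPM and a 3 h value below both others in all 3 treatments. It was at 98.4, 101 and 102 CPM at 1 h, 47.3, 59.1 and 55.5 CPM at 3 h and 107, 109 and 117 CPM at 6 h. The 3 h libraries lay far below all others, the outlying one was the highest of them, and the log2 departure was -0.97 (SE 0.07, edgeR adjusted p = 0.000501) and -1.05 without that library. PGK1, phosphoglycerate kinase, was at 797, 799 and 814 CPM, then 639, 458 and 684 CPM, then 1061, 1038 and 1083 CPM (log2 departure -0.65, SE 0.11, edgeR adjusted p = 0.00655). ENO1, enolase, was at 1264, 926 and 1286 CPM at 3 h against 1548 to 1972 CPM (-0.61, SE 0.11, edgeR adjusted p = 0.00865), and TPI1, triosephosphate isomerase, had a departure of -0.57 (SE 0.10, edgeR adjusted p = 0.00739). In PGK1, ENO1 and TPI1 the outlying library was the lowest of the 3 h libraries, and without it their departures were -0.50, -0.46 and -0.44, each still past the threshold.

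HIF1A, which encodes the oxygen-regulated subunit of hypoxia-inducible factor 1, a known activator of glycolytic genes, went from 86.5, 78.9 and 84.7 CPM to 46.1, 42.7 and 45.8 CPM and remained at 50.8, 46.1 and 50.7 CPM. Its departure was -0.51 (SE 0.06, edgeR adjusted p = 0.00156), and the 3 h and 6 h values overlapped. The core of the site that this factor binds, ACGTG on either strand, with matches to the 2 strands overlapping in CACGTG, occurred in 15 of 40 upstream windows of the 19 glycolysis genes matched (37.5%), against 18.5% of all. HK2 and PGK1 had the most negative log2 departures among the glycolysis genes described above. The windows of HK2 (chr2:74833877-74834126, plus strand, the first of 2 starts in RefSeq) and PGK1 (chrX:78103998-78104247, plus strand) on GRCh38.p14 are therefore shown, with ACGTG or CACGT in capitals.
HK2: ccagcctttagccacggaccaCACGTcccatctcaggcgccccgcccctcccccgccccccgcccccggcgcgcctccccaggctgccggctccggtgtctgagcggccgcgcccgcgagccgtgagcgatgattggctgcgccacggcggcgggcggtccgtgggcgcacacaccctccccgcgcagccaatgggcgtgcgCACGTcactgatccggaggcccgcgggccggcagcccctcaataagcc
PGK1: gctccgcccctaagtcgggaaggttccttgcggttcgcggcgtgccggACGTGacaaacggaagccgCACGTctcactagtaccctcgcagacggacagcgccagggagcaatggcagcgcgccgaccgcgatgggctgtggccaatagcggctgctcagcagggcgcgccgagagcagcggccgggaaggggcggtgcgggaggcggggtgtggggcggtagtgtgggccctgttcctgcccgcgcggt
Each window holds 2 matches, and a match is not evidence of binding.

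Outside glycolysis, several genes without near-identical copies fell by about 2-fold. SELPLG, the selectin ligand PSGL-1 on chromosome 12 from 108621895 to 108633894, was at 51.4, 54.7 and 49.4 CPM at 1 h, 26.9, 24.3 and 27.4 CPM at 3 h and 58.2, 53.3 and 53.9 CPM at 6 h (log2 departure -1.03, SE 0.08, edgeR adjusted p = 0.000524). The 3 h libraries agreed closely and lay below all others. DHX58, the RNA sensor LGP2, was at 5.81, 5.29 and 6.28 CPM at 3 h against 10.4 to 12.5 CPM (-0.99, SE 0.10, edgeR adjusted p = 0.00133), and TBC1D8, a Rab GTPase-activating protein, was at 9.93, 9.98 and 10.4 CPM against 14.4 to 28.0 CPM (-0.96, SE 0.08, edgeR adjusted p = 0.000721). PLD6, a mitochondrial phospholipase, and BMPR1B, a BMP receptor, had departures of -1.18 (SE 0.16, edgeR adjusted p = 0.0029) and -1.21 (SE 0.21, edgeR adjusted p = 0.00778) at low levels. NLN, the peptidase neurolysin, owed most of its departure of -1.06 (SE 0.09, edgeR adjusted p = 0.000714) to a rise at 6 h, from 10.7, 11.9 and 10.3 CPM at 3 h to 37.3, 35.9 and 38.4 CPM, with 13.5 to 14.7 CPM at 1 h. The remaining large decreases, RN7SL342P, RN7SL674P, RPL7AP28, SMIM11B and a second gene record named MATR3, share sequence with other loci and their division of reads is uncertain. RN7SL342P, SMIM11B and RN7SL674P had larger fitted decreases than any other gene named here, and no fold is given for them for that reason.

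CXCR4, S1PR1, RHOH and XPC, from lists in which most genes did not pass the test, dipped as well. Of 12 glucocorticoid targets, the list that holds CXCR4, 3 were lower and 1 was higher (5 and none without the outlying library), and of 17 nutrient and FOXO genes, the list that holds S1PR1, 4 were lower and none higher (4 and 1). CXCR4, the receptor for CXCL12, was at 260, 260 and 269 CPM at 1 h, 171, 133 and 193 CPM at 3 h and 222, 223 and 214 CPM at 6 h (log2 departure -0.55, SE 0.10, edgeR adjusted p = 0.0091). S1PR1, the sphingosine 1-phosphate receptor that guides exit from lymph nodes, was at 42.7, 39.6 and 46.0 CPM at 3 h against 48.5 to 63.7 CPM (-0.42, SE 0.06, edgeR adjusted p = 0.00463). RHOH, a GTPase needed for T cell receptor signalling, was at 95.4, 83.5 and 101 CPM against 129 to 171 CPM (-0.66, SE 0.08, edgeR adjusted p = 0.00196). For CXCR4, S1PR1 and RHOH no 3 h library overlapped the others. The DNA repair gene XPC dipped to 30.5, 29.0 and 31.6 CPM from 41.7 to 48.8 CPM at the other times (-0.60, SE 0.06, edgeR adjusted p = 0.0015).

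Chaperones of the heat shock class, which fold proteins in the cytosol and mitochondria, were lower as a list. Of 20 tested, 15 were lower and none higher, with a median of -0.38 and 4 dips, and 17 were lower with a median of -0.33 without the outlying library. Their summed level was 13720, 13430 and 13730 CPM at 1 h, 10680, 8999 and 11220 CPM at 3 h and 15150, 15050 and 15990 CPM at 6 h. HSP90AB1, a cytosolic HSP90, was at 1534, 1520 and 1545 CPM, then 1174, 909 and 1232 CPM, then 1856, 1863 and 1906 CPM (log2 departure -0.63, SE 0.10, edgeR adjusted p = 0.00496). HSPD1, the mitochondrial HSP60, was at 1020, 741 and 1112 CPM at 3 h against 1318 to 1501 CPM (-0.56, SE 0.10, edgeR adjusted p = 0.00865). HSPA8, the constitutive HSC70, had another course, since it was at 2547, 2519 and 2508 CPM at 1 h, 2448, 1834 and 2663 CPM at 3 h and 5192, 5207 and 5601 CPM at 6 h. The departure of HSPA8 was -0.68 (SE 0.11, edgeR adjusted p = 0.0064), with -0.14 against 1 h (adjusted p = 0.433) and -1.21 against 6 h (adjusted p = 0.000369). HSPA8 and several genes of glycolysis and the ribosome have processed pseudogenes to which similar reads could be assigned.

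Heat shock factors bind inverted repeats of GAA. Either arrangement of a pair, GAANNTTC or TTCNNGAA, each of which reads the same on both strands and which may overlap each other, was found in 12 of 31 upstream windows of the 19 list genes matched (38.7%), against 11.6% of all. The window of HSPA8 (chr11:123062137-123062386 of GRCh38.p14, minus strand) is shown because HSPA8 is the member whose level changed most between 3 and 6 h among those described, with these pairs in capitals.
HSPA8: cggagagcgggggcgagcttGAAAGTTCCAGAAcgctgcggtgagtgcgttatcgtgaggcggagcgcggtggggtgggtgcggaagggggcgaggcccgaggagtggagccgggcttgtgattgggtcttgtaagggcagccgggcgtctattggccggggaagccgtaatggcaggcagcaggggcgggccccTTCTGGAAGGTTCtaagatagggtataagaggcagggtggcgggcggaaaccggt
It holds 4 pairs in 2 overlapping groups, which are not evidence of binding.

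Host genes of small nucleolar RNAs, whose spliced exons mostly encode no protein and are degraded during translation, were also lower. Of 19 tested, 13 were lower and none higher, with a median of -0.42 and 5 dips, and 15 were lower without the outlying library. GAS5 was at 290, 275 and 294 CPM at 1 h, 200.5, 145 and 226 CPM at 3 h and 365, 357 and 365 CPM at 6 h (log2 departure -0.77, SE 0.10, edgeR adjusted p = 0.00317). SNHG1 was at 214, 151 and 249 CPM at 3 h against 246 to 353 CPM and overlapped the 1 h libraries (-0.57, SE 0.11, edgeR adjusted p = 0.0103). TAF1D, which also encodes a subunit of the RNA polymerase I factor SL1, was at 378, 278 and 397 CPM against 471 to 541 CPM (-0.55, SE 0.09, edgeR adjusted p = 0.00701).

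Ribosomal protein genes and ribosome biogenesis genes took different courses. Of 78 ribosomal protein genes 30 were lower and none higher, with a median of -0.35 and 12 dips. Their departure was strongest in the outlying library, in which their share of counts was low. The medians by treatment were -0.19, -0.73 and -0.18, against 0.0028, -0.0041 and -0.00070 over all tested genes, and the part of the depth and composition of that library in this result was not tested. Without it 52 were lower, none was higher and the median was -0.19. RPLP0, a subunit of the ribosomal stalk, was at 1919, 2006 and 1958 CPM, then 1559, 1154 and 1591 CPM, then 1966, 1825 and 2010 CPM (log2 departure -0.45, SE 0.10, edgeR adjusted p = 0.0199). RPLP0 missed the threshold when any of 5 other libraries was left out, with adjusted p-values from 0.0561 to 0.0632 there.

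The 38 ribosome biogenesis genes, which assemble ribosomes in the nucleolus, included 18 that were lower than the mean of 1 and 6 h and none that was higher or dipped (26 were lower and 1 was higher without the outlying library). Here the departure came from a late rise. From 1 to 3 h, 17 of these genes rose and none fell, with a median of 0.27, and from 3 to 6 h 36 rose, the median of these 38 genes at 3 h against 6 h being -0.86. Over all tested genes 14.6% were higher at 3 h than at 1 h and 15.1% lower at 3 h than at 6 h. NOP56, a core protein of box C/D ribonucleoproteins, was at 257, 260 and 266 CPM, then 246, 191 and 256 CPM, then 597, 591 and 586 CPM (log2 departure -0.77, SE 0.09, edgeR adjusted p = 0.00189).

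Lower values were spread over further abundant housekeeping groups. In the proteasome list 15 of 31 tested genes were lower and 1 was higher, with a median of -0.28 (16 and 1, with a median of -0.18, without the outlying library), and 27 were lower at 3 h than at 6 h but 2 lower than at 1 h, against 15.1% and 15.2% of all tested genes. PSMB4, a proteasome subunit, was at 128, 97 and 136 CPM at 3 h, 142 to 144 CPM at 1 h and 190 to 200 CPM at 6 h (log2 departure -0.48, SE 0.09, edgeR adjusted p = 0.0105). Of 36 nuclear genes of oxidative phosphorylation 11 were lower and none higher (14 and none without that library, where the share of all tested genes called lower went from 8.37% to 13.3%), and of 20 aminoacyl-tRNA synthetases 7 were lower and none higher (11 and 1). Of 31 genes of sterol and lipid synthesis 12 were lower and 1 was higher (17 and 2), with 4 dips. FDFT1, squalene synthase, dipped from 194, 200 and 200 CPM to 148, 127 and 151 CPM and returned to 209, 211 and 206 CPM (-0.52, SE 0.07, edgeR adjusted p = 0.00353).

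The 13 genes encoded by mitochondrial DNA did not pass the test in either direction. Their median departures were -0.16, 0.82 and -0.031 by treatment, so the outlying library stood apart here too, and 2 were lower without it. Among 20 members of the list for the T cell receptor and its kinases, 5 were lower and none higher, with no dip (7 were lower and 3 were higher without the outlying library). Most of the 35 genes of G2 and mitosis were lower at each later time. Of these, 24 were lower at 3 h than at 1 h and 26 were higher at 3 h than at 6 h, against 15.2% and 15.9% of all tested genes, and 4 were called higher and 2 lower against the mean of both (12 and 5 without the outlying library).

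**Figure D3:**
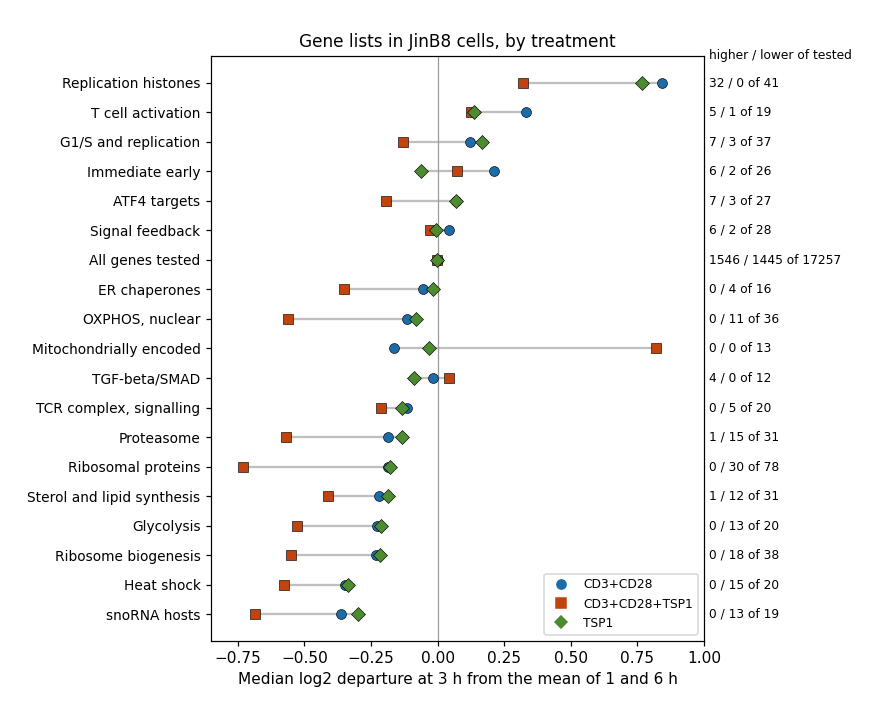
Median log2 departure at 3 h of 18 gene lists and of all tested genes in JinB8 cells (horizontal axis), with 1 symbol per treatment. Numbers at the right give the genes higher and lower by the edgeR test out of those tested, and the lists are ordered by their median without the outlying CD3+CD28+TSP1 library, which lies apart for ribosomal protein and mitochondrially encoded genes.

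The 13 T cell markers summed to 2388 to 3733 CPM, the lowest in the outlying library, and all were detected. Markers of B cells summed to 6.10 to 14.1 CPM, of NK cells to 6.43 to 13.3 CPM, of fibroblasts to 3.44 to 9.19 CPM, of epithelial cells to 2.33 to 3.95 CPM and of erythroid cells to 2.04 to 4.61 CPM. Myeloid markers summed to 4.42 to 6.74 CPM at 1 and 3 h and to 0.914 to 1.19 CPM at 6 h, and endothelial markers to 97.4 to 124 CPM. Only 1 of the 3 endothelial markers had enough counts to be tested, so that sum rests mainly on 1 gene. In bulk RNA, fewer cells in a state and less RNA per cell cannot be told apart.

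Whether the departure at 3 h depended on the CD3 and CD28 antibodies was asked by comparing the activated treatments with TSP1 alone. The edgeR test called 0 of 17257 genes (0%), with 449 at an unadjusted p under 0.05. DESeq2, limma voom and upper-quartile factors called 0 as well, with 154, 433 and 449 genes at an unadjusted p under 0.05. With no filter on low counts edgeR called 133. This comparison has 2 residual degrees of freedom, and in simulated data it recovered 13% of genes changed 2-fold, so a difference of that size would mostly go uncalled. EGR1, an immediate early transcription factor that is induced by receptor signalling, was among the genes with the smallest unadjusted p and a larger departure in activated cells, at 64.0, 67.1 and 61.2 CPM at 1 h, 29.4, 46.3 and 14.8 CPM at 3 h and 4.29, 5.42 and 4.79 CPM at 6 h. The difference in departure for EGR1 was 1.27 on the log2 scale (edgeR adjusted p = 0.916).

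WT Jurkat cells, analysed in the same way, had 2540 genes higher (15.1% of 16861 tested) and 2680 lower (15.9%) at 3 h. Of the JinB8 genes that were also tested in Jurkat cells, 761 of 1499 higher and 829 of 1433 lower genes were called in the same direction, 50.8% and 57.9%. These are 31.1% of the 2445 higher and 31.1% of the 2665 lower Jurkat calls, and 24 and 12 genes were called in opposite directions. Histone genes were higher at 3 h in both lines, with 39 of 41 higher and a median of 0.62 in Jurkat cells. Glycolysis genes were lower in 8 and higher in 1 of 20, heat shock genes lower in 5 and higher in 1 of 20, and ribosomal protein genes lower in 4 of 78 in Jurkat cells.

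The difference between the lines was tested as an interaction in a model of all 18 treated libraries. The departure was higher in JinB8 than in Jurkat cells for 361 of 18263 genes (1.98%) and lower for 213 (1.17%), with 3618 at an unadjusted p under 0.05. Leaving out single libraries gave 66 to 572 higher and 35 to 270 lower genes, lowest without the Jurkat library given CD3+CD28+TSP1 at 3 h. Of 41 histone genes none differed upward and 2 downward, of 20 glycolysis genes 2 upward and 1 downward, of 20 heat shock genes none upward and 4 downward, and of 78 ribosomal protein genes none in either direction.

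The unfolded protein list of the endoplasmic reticulum gave the most upward differences of the lists relative to its size. This list holds chaperones, which fold secreted and membrane proteins, and genes such as HERPUD1 that act in the degradation of misfolded ones. Of 16 tested, 9 differed upward and none downward, and with other tools and filters and without the outlying library 9 to 13 did. With any 1 of the 18 libraries left out the count was 6 to 13, and 6 was reached without any of several libraries, the Jurkat library given CD3+CD28+TSP1 at 3 h among them. In Jurkat cells all 16 were lower at 3 h, with a median of -0.66. In JinB8 cells 4 were lower and none higher, with a median of -0.098, and without the outlying library 6 were lower and 1 was higher, with a median of -0.059. HSPA5, the chaperone BiP, was at 306, 306 and 286 CPM at 1 h, 234, 312 and 237 CPM at 3 h and 251, 264 and 254 CPM at 6 h in JinB8 cells, and the values of 3 h overlapped both. HSPA5 was highest at 3 h in the outlying library, and without it the departure in JinB8 cells alone was -0.22 (edgeR adjusted p = 0.00683). Its log2 departure in the joint model was -0.10 in JinB8 and -1.25 in Jurkat cells, a difference of 1.15 (SE 0.12, edgeR adjusted p = 0.00144). HERPUD1, which acts in the degradation of misfolded proteins, was lower at 3 h in both lines, with departures of -0.41 and -1.29, a difference of 0.89 (SE 0.10, edgeR adjusted p = 0.00144). HYOU1, an exchange factor for BiP, differed by 0.54 (SE 0.09, edgeR adjusted p = 0.00603).

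NOTCH1 and DTX1 were among 5 Notch and lineage genes of 20 that differed upward, with none downward. The departure of DTX1 was 0.69 in JinB8 and -0.28 in Jurkat cells (difference 0.98, SE 0.16, edgeR adjusted p = 0.00578). That of NOTCH1 was 0.84 and -0.63 (difference 1.47, SE 0.30, edgeR adjusted p = 0.0217), and the call was lost without the Jurkat library given CD3+CD28+TSP1 at 3 h (1.12, adjusted p = 0.0943), without the JinB8 library given CD3+CD28 at 3 h (1.44, adjusted p = 0.0608) and without the Jurkat library given CD3+CD28 at 6 h (1.37, adjusted p = 0.0562). HK2 was lower at 3 h in both lines, with departures of -0.98 in JinB8 and -1.66 in Jurkat cells (difference 0.68, SE 0.10, edgeR adjusted p = 0.00277). ABCG1, a cholesterol exporter, fell from 53.8, 54.3 and 55.1 CPM to 24.5, 26.5 and 28.1 CPM and was at 19.8, 19.9 and 19 CPM at 6 h. The departures of ABCG1 were -0.31 in JinB8 and -1.46 in Jurkat cells (difference 1.15, SE 0.13, edgeR adjusted p = 0.00151).

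Among the named genes whose difference passed the test, HRH1, the histamine H1 receptor, had the largest downward one. It peaked in JinB8 cells at 9.49, 8.25 and 10.2 CPM, against 3.52 to 4.01 CPM at 1 h and 5.47 to 6.17 CPM at 6 h. The log2 departure of HRH1 was 0.99 in JinB8 and 2.78 in Jurkat cells, a difference of -1.78 (SE 0.20, edgeR adjusted p = 0.00144). STIM2, a calcium sensor of the endoplasmic reticulum, had departures of 0.081 and 1.23 (difference -1.15, SE 0.13, edgeR adjusted p = 0.00144) and was between 33.4 and 36.7 CPM in all 9 JinB8 libraries.

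**Figure D4:**
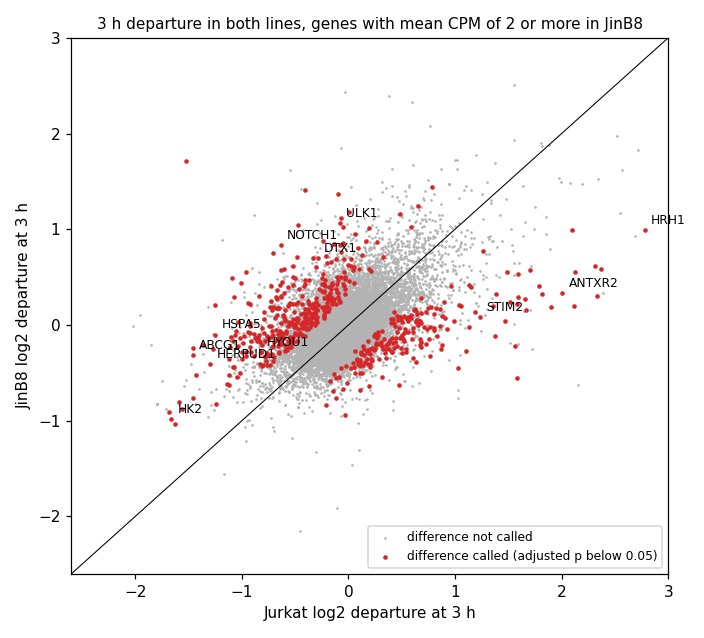
Log2 departure at 3 h in JinB8 cells (vertical axis) against that in Jurkat cells (horizontal axis) for 12822 genes with a mean of at least 2 CPM in JinB8 cells. The 548 genes whose difference passed an adjusted p of 0.05 are red, the diagonal marks equal departures, and 6 genes lie outside the axes; HSPA5 and HERPUD1 lie above and HRH1 and STIM2 below the diagonal.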

How the data were processed

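RNA of 20 libraries, 1 per condition, was sequenced by the authors with a TruSeq mRNA kit, and the reads were trimmed (cutadapt 1.18), aligned to GRCh38 in the two-pass mode of STAR 2.4.2a and quantified with RSEM 1.3.3 on the GENCODE annotation. What the authors deposited are expected counts, estimated by RSEM without normalization, in which a read that fits several copies is divided among them. The strand setting is not given in the sources used here. Of the columns for genes, 2 could not be tied to a sample and were not used, and the isoform table was not used. All table rows name a gene.

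Expected counts were rounded. Genes were kept by filterByExpr of edgeR by time point (at least 10 counts, and 15 in total). TMM factors (0.946 to 1.03, and 1.153 in the outlying library) scaled the libraries, and quasi-likelihood tests of a model of treatment plus time, with 4 residual degrees of freedom (3 without the outlying library, 8 in the model of both lines), were called at 0.05 after Benjamini-Hochberg adjustment across the whole table. The treatment term pairs libraries by label only. Principal components and correlations between libraries used log2 CPM from edgeR, with a small count added that is scaled to library size. A total of 3 counts, the limit of detection, is 0.120 to 0.186 CPM, and it covers counting error only. Departures by treatment used log2 CPM with a pseudocount of 0.5 CPM. The programs were edgeR 4.0.16, DESeq2 1.42.0 and limma 3.58.1 under R 4.3.3. Positions are from GENCODE version 44, matched by identifier for 17194 of the 17257 tested genes, and promoters from RefSeq.

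The genes named are the 12 with the largest departures in each direction with a mean of at least 2 CPM and a 3 h value outside both others in all 3 treatments (genes known by clone names, 59 higher and 28 lower, were passed over), up to 6 members of each list, and the 5 with the smallest p in each direction for the differences between lines and between treatments. The libraries, the lists and the rule were chosen with earlier results of these data known. On simulated data of the same depth, the test of the 3 h departure recovered 70% of genes changed 1.5-fold and 83% of those changed 2-fold, and the test between the lines 44% and 80%. Of the calls on simulated data, 5.56% and 8.15% were false in these 2 tests. The test of activated cells against TSP1 alone recovered 0% of genes changed 1.5-fold and 13% of those changed 2-fold. In that test 23.5% of the calls on simulated data were false. All these simulations changed 100 genes per fold, none of them at low levels, by the same fold in each 3 h library concerned. No other simulated gene had a time course, so the rates in the measured data can differ.

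The calls were repeated with upper-quartile factors, with DESeq2, with limma voom after quantile normalization, with no filter, a filter of 1 CPM in every library, omission of the outlying library, counts thinned to the shallowest library, no treatment term, a model of both lines, and each library left out in turn. Single-gene differences between the lines were carried through these alternatives after the data had been seen.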

Additional observations from a re-analysis of the deposited data

Results flagged for a closer look

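The difference between the lines in the 3 h departure passed the test for 361 genes higher and 213 lower in JinB8 than in Jurkat cells, as described above. Among the genes named, SELPLG, the selectin ligand, fell less in JinB8 than in Jurkat cells, by a log2 difference of 0.60 (SE 0.14, edgeR adjusted p = 0.0389). This call of SELPLG was lost with limma voom (0.53, adjusted p = 0.051) and on leaving out any of 12 single libraries, most clearly the Jurkat library given CD3+CD28+TSP1 at 3 h (0.49, adjusted p = 0.177). The differences of HK2 (0.68), HSPA5 (1.15), HERPUD1 (0.89) and ABCG1 (1.15) were upward, and those of HRH1 (-1.78) and STIM2 (-1.15) downward, and these 6 passed with each of the 18 libraries left out.

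NEURL1B, a Notch pathway ubiquitin ligase, differed by 0.93 (edgeR adjusted p = 0.00144), with a log2 departure of 0.30 in JinB8 and -0.63 in Jurkat cells. In JinB8 cells NEURL1B fell over the course, from 21, 22.5 and 22.2 CPM to 16, 17.5 and 16.4 CPM and 8.22, 8.65 and 8.12 CPM. ARHGEF10 differed by 1.44 (edgeR adjusted p = 0.00148), with a log2 departure of 0.44 in JinB8 and -1.0 in Jurkat cells. ANTXR2, a receptor for collagen VI and anthrax toxin, differed by -1.67 (edgeR adjusted p = 0.00204), with a departure of 0.34 in JinB8 and 2.01 in Jurkat cells. SVIL, the actin-binding supervillin, differed by -0.85 (edgeR adjusted p = 0.00204) and CRYBG1 by -0.66 (edgeR adjusted p = 0.00206), and neither departed from its 1 and 6 h mean past the threshold in JinB8 cells.

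The JinB8 library given CD3+CD28+TSP1 at 3 h lay outside the range of the others by Dixon's criterion in its total of 16107921 counts, its TMM factor of 1.153 and its share of ribosomal protein counts of 5.32%. The shares of RN7SL and RN7SK, mitochondrial, MALAT1 and NEAT1, and histone counts were examined too, as were both principal components. None of these passed. Chance alone passes this criterion in about 1 of 20 groups for each measure, and more often where several are examined.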

How the results depend on the processing

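For the named genes called in JinB8 cells, 606 of the values given by other tools, scalings, filters and sample sets kept direction and call and 8 lost the call. With 1 library left out, 573 kept both and 48 lost the call, mainly for ARHGEF10, NEURL1B, ANTXR2, HYOU1, RPLP0, ABCG1 and the histone gene H1-5. HSPA5, not called, changed sign with limma voom (0.0050, adjusted p = 0.977) and was called lower without the outlying library (-0.22, adjusted p = 0.00683). SVIL, not called, ranged from -0.15 to 0.017 with 1 library left out, and was 0.017 without the TSP1 library of 3 h. Leaving out 1 library gave 506 to 2145 higher and 453 to 2326 lower genes, 215 to 718 peaks and 150 to 744 dips. Peaks and dips were 215 and 150 without the CD3+CD28 library of 1 h, 261 and 206 without that of 3 h, 245 and 168 without that of 6 h, 233 and 188 without the CD3+CD28+TSP1 library of 6 h, and 317 and 202 without the TSP1 library of 6 h. Dips were 240 and 214 without the CD3+CD28+TSP1 and the TSP1 library of 1 h. Without the outlying library there were 2326 lower genes and 744 dips. Without the treatment term, that is with no replicate block, 1554 genes were higher and 1431 lower, with 451 peaks and 358 dips. Upper-quartile factors raised the share of higher calls from 51.7% to 56.5%.

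For the difference between the lines, DESeq2 called 630 genes higher and 437 lower, limma voom 326 lower, a filter of 1 CPM in every library 326 lower, and no filter 1081 and 538. Leaving out 1 library gave 66 to 572 higher and 35 to 270 lower genes. The upward count of 361 became 572 without the Jurkat library given CD3+CD28 at 1 h. Among the Jurkat libraries, the counts were 240 and 111 without CD3+CD28+TSP1 at 1 h, 181 and 121 without TSP1 at 1 h, 190 and 106 without CD3+CD28 at 3 h, 66 and 35 without CD3+CD28+TSP1 at 3 h, 135 and 83 without CD3+CD28 at 6 h and 143 and 70 without CD3+CD28+TSP1 at 6 h. Among the JinB8 libraries they were 144 and 83 without CD3+CD28 at 1 h, 135 and 82 without it at 3 h, 170 and 108 without it at 6 h, 154 and 94 without CD3+CD28+TSP1 at 6 h and 186 and 100 without TSP1 at 6 h. With no filter 133 genes differed between activated cells and TSP1 alone, against 0. The causes were not tested.

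Each condition was sequenced once, so differences between treatments in time course count as error, and in simulated data the test recovered 70% of genes changed 1.5-fold. The untreated library exists at 1 h only. Histone mRNAs without poly(A) tails are measured only in part. Low genes such as VGF and BMPR1B rest on few counts, and genes with near-identical copies on the division of reads.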

Other observations

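Some gene groups were not described above, and their counts are given here. Of 37 tested genes of the G1/S transition and DNA replication, 7 were higher and 3 lower, with 17 and 7 without the outlying library. Of 26 interferon-induced genes 4 were lower and none higher, with 4 and 2 without the outlying library. Of 15 circadian clock genes 4 were lower and none higher, with a median log2 departure of -0.18, and without that library 5 were lower and the median was -0.27. Of 17 tested genes of the oxidative stress response 2 were higher and 1 lower, with 4 and 2 without that library. Of 20 genes of splicing regulators 2 were higher and 6 lower, and without the outlying library 6 and 7. In the hypoxia list of 14 genes 1 was higher and 5 were lower, with 3 and 4 without the outlying library. Compared with 1 h alone, 11 of the 14 were lower at 3 h, against 15.2% of all tested genes. Compared with 6 h alone, 7 were higher and 1 lower at 3 h, against 15.9% and 15.1%.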
